A study of Schizosaccharomyces pombe with 97 samples.

Results

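The transcriptome of fission yeast (*Schizosaccharomyces pombe*) cells lacking *arp42* was compared with that of wild-type cells after 1 week without nitrogen (T1W). The 3 T1W libraries of *arp42∆* were set against the 3 T1W libraries of *smt0*, that is 6 of the 81 RNA libraries of the series, chosen by their labels alone. The *arp42∆* strain carried the *smt0* allele and a *kanMX4* cassette in place of *arp42*; it came from a deletion library strain crossed into the prototrophic *smt0* background, so it stands for 1 deletion strain. The *smt0* strain, a wild type of mating type M that cannot switch mating type, carried the same *smt0* allele and no deletion. Both strains were grown in minimal medium with nitrogen (T0) and shifted to the same medium without it at the same temperature. Cultures A, B and C of each strain are biological triplicates according to the study.

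Quiescence (G0) is a resting state of living, non-dividing cells with a low RNA content, and nitrogen withdrawal from a culture of a single mating type is a common way to obtain it in fission yeast. Arp42 is an actin-like protein that RefSeq lists as a subunit of the chromatin remodelers SWI/SNF and RSC, and which the study treated as a putative subunit of the Ino80 complex (Ino80C). These remodelers use ATP to slide, evict or exchange nucleosomes and so affect access to genes. In haploid M cells nitrogen starvation also switches on a mating program: the transcription factor Ste11 binds a short motif called the TR box and turns on genes for the M-factor pheromone, its export and the receptor for the pheromone of P cells.

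Sequences are printed for mating genes and tRNA genes. Of the tested members, 11 of 33 and 45 of 150 were higher at week 1 on the gene-count scale described below, against 5.21% of all genes. The 150 tRNA genes include mitochondrial ones. The first set holds 30-base windows around the TR box match TTCTTTGT (or ACAAAGAA on the other strand) within 500 bases before the start codon of the 4 mating genes with the smallest adjusted p-values among those with a match. Sequences are from RefSeq assembly ASM294v3, written in the direction of the gene whose start codon they precede, and capitals mark the match. The window was counted back from the start codon, so a match can lie within the transcribed part of a gene.
mfm1 (I:4916926-4916955, plus strand): gggtccgaccaACAAAGAAgtctcagtttt
mfm3 (II:700190-700219, plus strand): aggcccaaccaACAAAGAAgtctcagattt
spk1 (I:3001033-3001062, minus strand): cataatttattACAAAGAAcgttgtaattc
rgs1 (I:679707-679736, plus strand): catttaatgatTTCTTTGTttaaaagaaag
The matches begin 162 bases (*mfm1*), 163 bases (*mfm3*), 83 bases (*spk1*) and 458 bases (*rgs1*) before the start codon. The letters occur in the same window of 368 of 5144 coding genes (7.15%), and a match is a description of the sequence, not evidence of binding.

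The second set holds mature nuclear tRNA genes whose counts were higher in *arp42∆*, with the internal promoter element known as the B box, searched as GTTCNANNC, in capitals.
SPATRNASER.01 (I:1096369-1096466, plus strand, exons joined): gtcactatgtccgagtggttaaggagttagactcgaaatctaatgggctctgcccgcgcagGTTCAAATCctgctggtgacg
SPBTRNAASN.02 (II:2032160-2032233, plus strand): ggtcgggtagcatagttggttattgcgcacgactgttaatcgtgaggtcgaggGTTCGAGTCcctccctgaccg
SPCTRNATHR.10 (III:1361090-1361161, minus strand): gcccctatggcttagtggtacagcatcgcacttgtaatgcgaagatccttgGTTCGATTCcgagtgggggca
The B box letters were found in 118 of 125 nuclear tRNA genes tested (94.4%).

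Values were put on 2 scales. On the gene-count scale a library is normalized to its own yeast gene counts (TMM, trimmed mean of M values), so a gene is measured relative to the other genes, in normalized CPM, its count scaled to a common library total. On the spike-in scale it is normalized to the ERCC transcripts, synthetic RNAs whose dose the study set by how many vegetative cells a sample held, so a gene is measured per cell counted. Gene counts of the T1W libraries were 2869088 to 5426727 in *arp42∆* and 3271040 to 6000875 in *smt0*, and gene counts of the whole series were 1980570 to 18992894. The share of counted reads that came from ERCC transcripts was 42.9%, 51.2% and 28.5% in *arp42∆* cultures A, B and C, against 2.75%, 5.05% and 20.6% in *smt0* cultures A, B and C. Thus *smt0* C stood apart from *smt0* A and B but still lay below all *arp42∆* cultures.

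The reads at the deleted gene did not give a clean check of the label. *arp42* (SPAC23D3.09, I:4352333-4355333, minus strand, ASM294v2) had 41.2, 34.4 and 50.6 CPM in *arp42∆* cultures A, B and C, against 64.8, 79.0 and 64.4 CPM in *smt0* cultures on the gene-count scale. All 3 *arp42∆* cultures were below all *smt0* cultures, with a log2 fold change of -0.70 ± 0.20 (SE) and an adjusted p of 0.0163 (edgeR quasi-likelihood test with Benjamini-Hochberg adjustment, as for every adjusted p given for a gene). The call was lost without *smt0* B (adjusted p 0.0866), without *arp42∆* A (0.0987) or without *arp42∆* B (0.22). Of the 2925 exon bases of *arp42*, 1275 (43.6%) were coding and 2695 (92.1%) were shared with *usp108* on the other strand, and the counting strand is not given in the sources used here. The same strain at T0 had a log2 fold change of -2.31. Markers of the M mating type were detected in all 6 libraries, as the *smt0* genotype of both strains calls for, and none of the 4 tested P cell markers changed (median log2 fold change 0.12).

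The amount of RNA per cell counted was lower in *arp42∆*. The expression level of a library, the median over 6608 tested genes of log2(spike-in CPM + 1), was 6.19, 5.58 and 7.41 in *arp42∆* cultures A, B and C, against 11.03, 9.96 and 7.89 in *smt0* cultures A, B and C. The groups did not overlap, although *arp42∆* C and *smt0* C were close. The means were 6.39 ± 0.93 in *arp42∆* and 9.62 ± 1.60 in *smt0* (SD, n = 3 each), a difference of -3.23, and the two-sided exact permutation p was 0.1, the smallest that 3 against 3 can give (0.125 after adjustment over 5 comparisons). The difference was -2.53 without *smt0* A and -4.10 without *smt0* C. In bulk cultures, fewer cells with RNA and less RNA per cell cannot be told apart, and the viability that the study measured was not used here.

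The level of *arp42∆* was set against the other mutants of the first batch as well. The *ies2∆* mutant, which the study describes as a second batch, was not compared. It differed by -2.78 from *hht2∆* (a histone H3 gene deletion), by -3.51 from *pht1∆* (the H2A.Z deletion) and by -3.85 from *iec1∆* (an Ino80C subunit deletion), with no overlap and an exact permutation p of 0.1 in each case. Against *asp1∆*, which lacks an inositol kinase, the difference was -1.72 and the groups overlapped (exact permutation p 0.2).

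**Figure D1:**
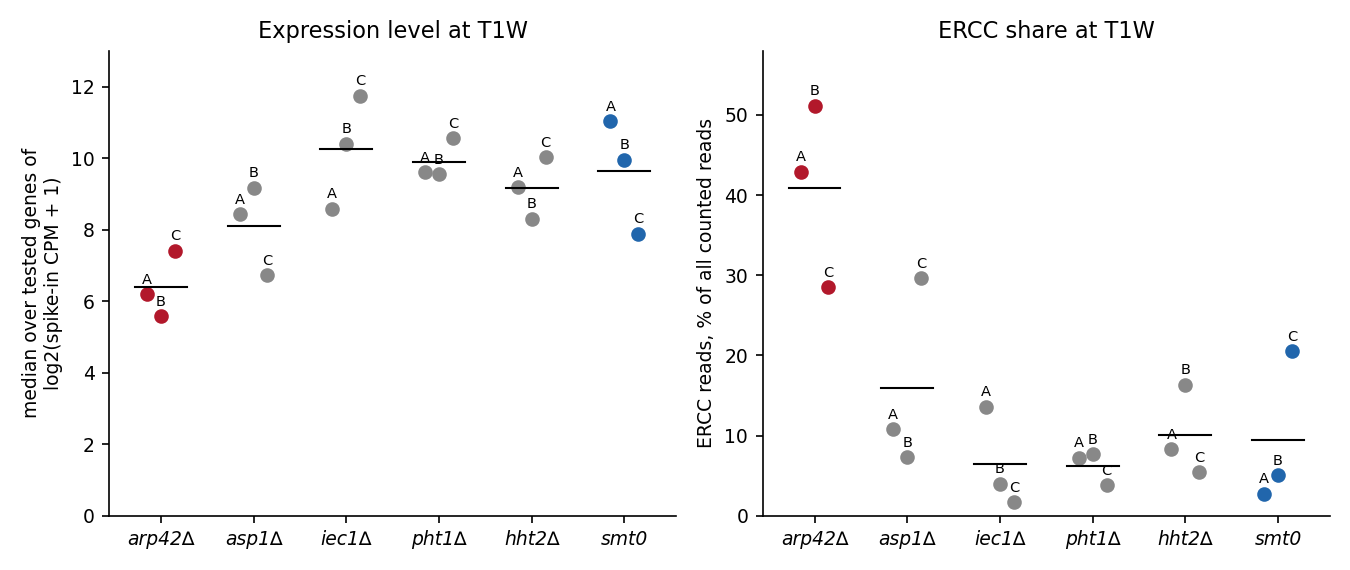
Left, the median over 6608 genes of log2(spike-in CPM + 1) in each T1W library; right, the ERCC reads as a percentage of all counted reads. Points are cultures A, B and C and lines are group means; the 3 *arp42∆* cultures lie at 5.58 to 7.41 on the left, below all *smt0* cultures (7.89 to 11.03), and at 28.5% to 51.2% on the right, above all *smt0* cultures (2.75% to 20.6%).

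On the gene-count scale 710 of 6608 tested genes changed (10.7%), 344 higher (5.21%) and 366 lower (5.54%) in *arp42∆*, with a median log2 fold change over all genes of -0.03. The changes upward were larger: 219 of the higher genes and 41 of the lower genes differed by at least 2-fold. The groups did not overlap for 2041 genes (30.9%). On the spike-in scale 6105 genes were lower (92.4%) and 3 were higher (0.0454%), with a median of -3.48, and the groups did not overlap for 5188 genes (78.5%). All 366 genes lower on the gene-count scale were lower on the spike-in scale as well. Of the 344 genes higher on the gene-count scale, 229 were lower on the spike-in scale, 112 were not called there and 3 were higher on both. The number of calls on the gene-count scale depended on single cultures: it was 125 without *arp42∆* B and 1023 without *arp42∆* C. It was also 256 without *arp42∆* A, and 404, 359 and 372 without *smt0* A, B and C.

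The balance of calls also depended on the scaling: the share of higher calls was 48.5% with TMM, against 62.8% with DESeq2 size factors, 73.9% with upper-quartile factors and 39.9% with total counts and no TMM factors, and the median of all genes was -0.03, 0.02, 0.07 and -0.10 in the same order. The direction of the calls moved with the abundance and class of the genes. The 1652 genes with the lowest mean CPM had a median log2 fold change of 0.38 with 148 higher and 10 lower, and the 1652 genes with the highest had a median of -0.15 with 55 higher and 158 lower. The 5084 nuclear protein-coding genes had a median of -0.09 with 187 higher and 350 lower, and the 1524 noncoding and mitochondrial genes had a median of 0.42 with 157 higher and 16 lower. From the shortest to the longest coding genes, in 4 groups of equal size, the medians were 0.01, -0.08, -0.10 and -0.15. The part of depth in these trends was not tested.

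**Figure D2:**
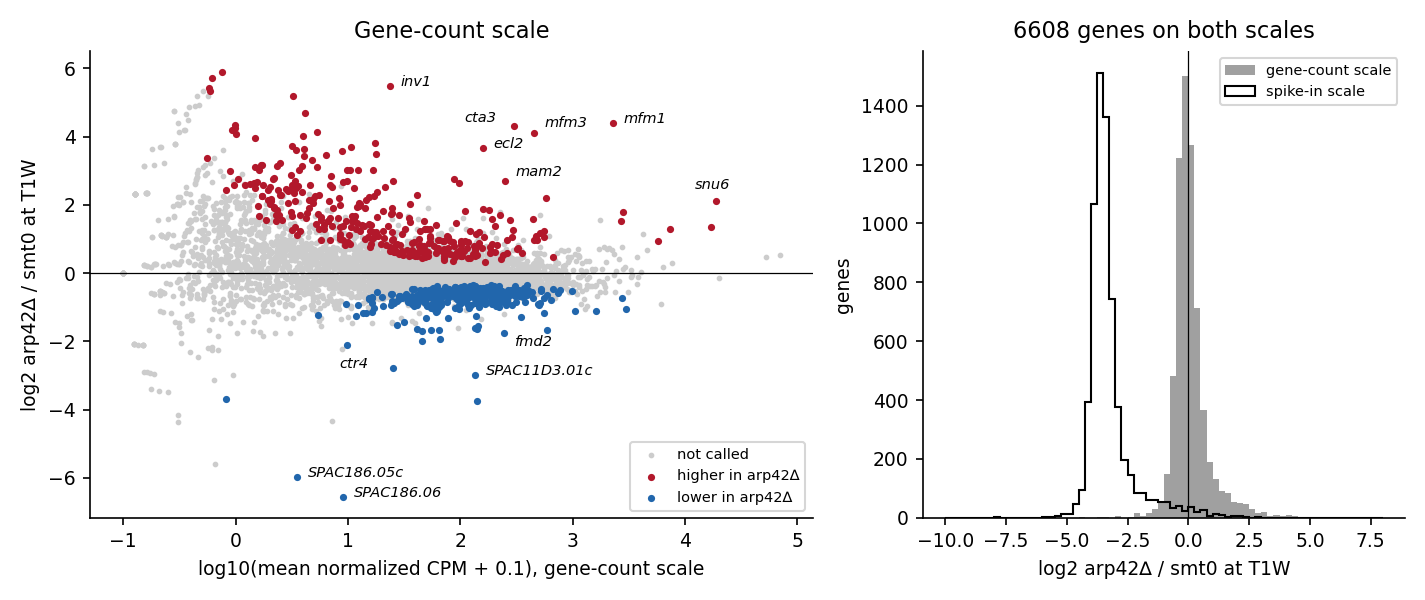
Left, log2 fold change of *arp42∆* over *smt0* at T1W on the gene-count scale against log10(mean normalized CPM + 0.1), with the 344 higher and 366 lower genes in colour; right, the distribution of fold changes of the 6608 genes on both scales. The gene-count scale is centred near 0 (median -0.03) and the spike-in scale near its median of -3.48.

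Mating genes were among those with the largest increases. Of 33 tested mating and pheromone response genes (37 in the table), 11 were higher and 1 was lower in *arp42∆* on the gene-count scale, where 5.21% and 5.54% of all genes were called; the median of the list was 0.36, against -0.03 over all genes. The summed CPM of the list was 14285, 14655 and 9826 in *arp42∆*, against 6098, 3034 and 4698 in *smt0*, with no overlap. Per cell counted, on the spike-in scale, no member was higher and 29 were lower (median -3.10). The count was 6 higher and 0 lower without *smt0* B and also without *arp42∆* B.

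The M-factor precursor genes led this group. *mfm1* (SPAPB8E5.05), 1 of the genes that encode the M-factor precursor, had 4636, 4760 and 3593 CPM in *arp42∆* cultures, against 307, 53.4 and 249 CPM in *smt0* cultures. All *arp42∆* cultures were far above all *smt0* cultures, and *smt0* B was the lowest (means 4330 ± 641 and 203 ± 133, SD, n = 3 each). Its log2 fold change was 4.41 ± 0.59 (SE) with an adjusted p of 5.97e-07. *mfm3* (SPBPJ4664.03), another M-factor gene, had 892, 855 and 806 CPM in *arp42∆*, against 80.3, 15.9 and 51.3 CPM in *smt0*. The groups did not overlap and the log2 fold change was 4.10 ± 0.52 (SE; adjusted p 2.37e-07). *mfm2*, the remaining M-factor gene, had 184, 153 and 243 CPM in *arp42∆*, against 200, 40.3 and 48.2 CPM in *smt0*. Here *smt0* A lay among the *arp42∆* cultures and the log2 value of 1.01 did not pass the test (adjusted p 0.234). On the spike-in scale *mfm1* and *mfm3* were not called (log2 0.65 and 0.33, adjusted p 0.338 and 0.629): *mfm1* had 6380, 4313 and 11117 spike-in CPM in *arp42∆* cultures, against 11851, 986 and 1047 in *smt0* cultures, so *smt0* A lay above all *arp42∆* cultures.

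Genes for sensing and relaying pheromone were higher as well. *mam2*, the receptor for P-factor, had 488, 559 and 261 CPM in *arp42∆*, against 120, 23.2 and 54.7 CPM in *smt0*, with no overlap (log2 2.71 ± 0.54, SE; adjusted p 0.000693). *spk1*, the kinase of the pheromone signal, had 409, 595 and 229 CPM in *arp42∆*, against 175, 86.3 and 155 CPM in *smt0*, also with no overlap (log2 1.56 ± 0.29, SE; adjusted p 0.000288). *rgs1*, a regulator of pheromone signalling, rose by 1.85 on the log2 scale (adjusted p 0.00116) and *map1*, a transcription factor of P cell genes, rose by 1.30 (adjusted p 0.00247). *mam1*, the M-factor exporter, had 724, 803 and 395 CPM in *arp42∆*, against 408, 192 and 298 CPM in *smt0*. Its groups overlapped between *arp42∆* C and *smt0* A, and its call (log2 1.10, adjusted p 0.00914) was lost without *smt0* B (0.0806) and without *arp42∆* B (0.099). *ste11*, the transcription factor of the program, overlapped too, with 942, 873 and 439 CPM in *arp42∆*, against 534, 215 and 326 CPM in *smt0* (log2 1.07, adjusted p 0.0121). Its call was lost without *smt0* B (0.105), *smt0* C (0.0533), *arp42∆* A (0.0713) or *arp42∆* B (0.083).

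The other members called higher were *mam3*, *ste7* and *mam4*, with log2 fold changes of 1.23, 1.16 and 1.52. The calls of *ste7* and *mam4* were lost without any 1 culture other than *arp42∆* C, with adjusted p values up to 0.164 (*ste7*) and 0.189 (*mam4*); *mam3* was lost without *smt0* B (0.065) and without *arp42∆* B (0.133). The one lower member, *ral2*, a regulator of Ras signalling, had a log2 fold change of -0.47 (adjusted p 0.0385) and was lost under each left-out culture. Of these 11 higher genes, 7 hold the TR box letters: *mfm1*, *mfm3*, *spk1* and *rgs1*, printed above, and *mam3*, *mam4* and *map1*. Over the whole list, 12 of the 32 members with a coding start had them, against 7.15% of all coding genes. No TR box letters were found in this window for *mam2*, *mam1*, *ste7* or *ste11*.

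Several pheromone genes had larger fold changes at T1W than at T1D. Of the mating list, 9 genes were higher and 1 was lower at T0 (median 0.54), where 8.85% and 10.8% of all genes were, 1 was higher and 10 were lower at T1D (median -0.34), where 14.7% and 17.6% were, and 5 were higher and 2 lower at T2W (median 0.40), where 9.29% and 7.55% were. *mfm1* was higher at T0 (log2 3.15), not called at T1D (log2 0.85) and higher at T2W (log2 3.55), and the T1W difference exceeded the T1D difference by 3.56 for *mfm1*, 4.35 for *mfm3* and 3.73 for *mam2* on the log2 scale. Over the mating list the difference at T1W exceeded that at T1D for 14 of 33 genes, against 5.72% of all genes, and was below it for none, against 5.89%. Compared with the difference at T0, it was above for 1 gene and below for 1 (median change 0.04), against 2.81% and 2.65% of all genes. At T1D *mfm1* was at 2522, 9497 and 2674 CPM in *arp42∆*, against 2440, 3463 and 2258 CPM in *smt0*. The groups overlapped there; at T1W the *arp42∆* cultures were still within that range, and the *smt0* cultures were below it.

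A further group of genes was nearly silent in *smt0* at T1W and measurable in *arp42∆*. *inv1* (SPCC191.11, III:1723393-1726164, plus strand), which encodes the external invertase that splits sucrose, had 42.0, 21.6 and 74.6 CPM in *arp42∆* cultures, against 0.863, 0.61 and 1.4 CPM in *smt0* cultures. Every *arp42∆* culture was above every *smt0* culture, with a log2 fold change of 5.49 ± 1.18 (SE; adjusted p 0.00174). *inv1* was also 1 of the 3 genes higher on the spike-in scale (log2 2.98, adjusted p 0.000425), although *arp42∆* B, with 19.6 spike-in CPM, lay below *smt0* A, with 33.3, so the groups overlapped there. The other 2 had few counts in *smt0*: SPBPB10D8.02c, an arylsulfatase at the left end of chromosome II, had 66 counts in *arp42∆* and 2 in *smt0* (ratio 40.6, counting interval 10.8 to 342), and SPBC460.04c had 82 counts in *arp42∆* and 4 in *smt0* (ratio 25.2, counting interval 9.49 to 94.8). Their log2 fold changes on the spike-in scale were 2.61 and 2.24 with adjusted p values of 0.018 and 0.0277. The 3 higher calls on that scale became 0 without *arp42∆* C and 0 with only the 6 libraries compared, 1 without *smt0* C, and 7 without *arp42∆* B.

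*cta3*, a calcium transporting ATPase, had 704, 640 and 372 CPM in *arp42∆*, against 24.8, 30.2 and 31.4 CPM in *smt0*. The *smt0* cultures were nearly alike and far below, with a log2 fold change of 4.31 ± 0.57 (SE; adjusted p 5.97e-07). *ecl2*, which encodes a small protein that extends chronological life span when overproduced in fission yeast, had 330, 314 and 234 CPM in *arp42∆*, against 27.2, 26.8 and 15.4 CPM in *smt0*, with a log2 fold change of 3.67 ± 0.39 (SE; adjusted p 1.93e-09). *ppk31*, a serine/threonine kinase, had 192, 150 and 115 CPM in *arp42∆*, against 27.8, 21.7 and 18.3 CPM in *smt0* (log2 2.75, adjusted p 0.0032). None of *cta3*, *ecl2* and *ppk31* was called on the spike-in scale. SPBC660.05, which RefSeq names *wwm3*, rose by 3.83 on the log2 scale (adjusted p 0.012), a call lost without *smt0* A (0.0557) and without *arp42∆* B (0.0555).

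These genes had larger differences at T1D. The log2 fold change of *inv1* was 7.86 at T1D, that of *cta3* 6.13 and that of *ppk31* 7.21, each larger than at T1W. At T0 *cta3* was lower in *arp42∆* (log2 -1.42), and *inv1* was not called (log2 -1.20); there *smt0* A stood apart, with 6.44 CPM of *inv1* against 126 and 144 CPM in *smt0* B and C, and the groups overlapped for both genes. Among genes of sulphur and amino acid supply, *met17*, a homocysteine synthase, was higher (adjusted p 0.000774), with 53.3, 63.7 and 41.1 CPM in *arp42∆*, against 15.3, 22.3 and 18.3 CPM in *smt0*.

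**Figure D3:**
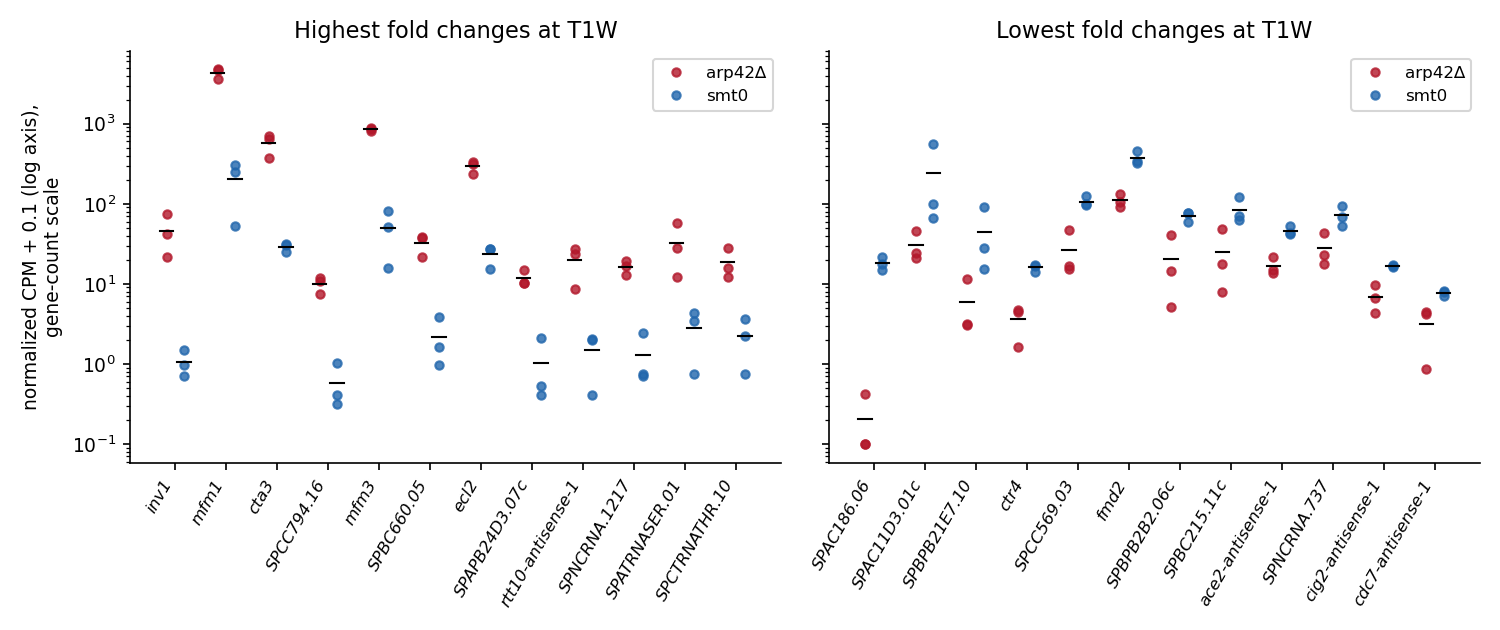
Normalized CPM + 0.1 (log axis, gene-count scale) in the 6 T1W libraries for the genes with the highest (left) and lowest (right) fold changes; points are cultures, *arp42∆* left of *smt0*, and lines are means. For each gene shown the groups do not overlap; *mfm1* lies at 3593 to 4760 CPM in *arp42∆* and at 53.4 to 307 CPM in *smt0*.

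Short noncoding RNAs took a larger share of the gene counts in *arp42∆*. Of 150 tested tRNA genes, 45 were higher and none was lower on the gene-count scale, where 5.21% and 5.54% of all genes were called. Mitochondrial tRNA genes are part of this list, and of 125 nuclear ones tested with a RefSeq sequence 40 were higher. The median of the whole list was 1.83. On the spike-in scale 43 were lower and 107 were not called (median -0.84), whereas 92.4% of all genes were lower there, with a median of -3.48. Nuclear tRNA genes made up 0.0755%, 0.143% and 0.0597% of gene counts in *arp42∆* cultures A, B and C, against 0.0212%, 0.0271% and 0.0365% in *smt0* cultures, with no overlap. The highest share was in *arp42∆* B, and without that culture 11 tRNA genes were higher; the count was 27 without *smt0* A and 29 without *smt0* B or C. Of the 40 higher nuclear tRNA genes, 28 have an identical copy elsewhere in the genome and their counts are uncertain, and 12 of the 29 tested without one were higher. All 40 hold the B box letters.

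SPATRNASER.01, a serine tRNA, had 27.7, 57.2 and 12.2 CPM in *arp42∆*, against 0.648, 3.36 and 4.2 CPM in *smt0*. The lowest *arp42∆* culture was C and it stayed above the highest *smt0* culture (log2 3.48 ± 0.56, SE; adjusted p 3.37e-05). SPBTRNAASN.02, an asparagine tRNA, had 75 counts in *arp42∆* and 6 in *smt0* (ratio 15.4, counting interval 6.75 to 43.3), and SPCTRNATHR.10, a threonine tRNA, had 15.7, 28.2 and 12.2 CPM in *arp42∆*, against 0.648, 2.14 and 3.58 CPM in *smt0* (adjusted p 0.00115).

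Small nuclear and nucleolar RNAs followed. Of 40 tested, 7 were higher and none was lower (list median 0.75), beside 5.21% higher and 5.54% lower of all genes. The higher count was 1 without *arp42∆* B and 2 without *smt0* A. *snu6* (SPSNRNA.06, I:2562276-2562427), the U6 RNA of the spliceosome, had 27412, 38822 and 25109 CPM in *arp42∆*, against 6427, 5476 and 9407 CPM in *smt0*. Every *arp42∆* culture was above every *smt0* culture, with a log2 fold change of 2.10 ± 0.48 (SE, adjusted p 0.00285). U6 RNA and nuclear tRNAs are both made by RNA polymerase III. *snoR47* had 3549, 5815 and 3611 CPM in *arp42∆*, against 620, 1129 and 1994 CPM in *smt0* (log2 1.79), and its call (adjusted p 0.0325) was lost without *smt0* A (0.135), *smt0* B (0.102) or *arp42∆* B (0.155). The libraries had been depleted of ribosomal RNA, and the rRNA remaining was 18.5%, 15.2% and 9.21% of gene counts in *arp42∆*, against 13.8%, 12.7% and 6.64% in *smt0*; its part in these results was not tested.

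Antisense and other noncoding RNAs were called higher more often than lower. Of 611 antisense RNAs, 44 were higher and 7 lower (median 0.32), and of 669 other noncoding RNAs named SPNCRNA, 58 were higher and 8 lower (median 0.34). Without *arp42∆* B the higher counts were 13 and 23. Of all genes 5.21% were higher and 5.54% lower. Of the 1652 genes with the lowest mean CPM, 148 were higher and 10 lower (median 0.38). *rtt10-antisense-1* had 27, 23.6 and 8.54 CPM in *arp42∆*, against 1.94, 0.305 and 1.87 CPM in *smt0* (log2 3.69 ± 0.52, SE; adjusted p 2.12e-06), and SPNCRNA.934 had 85.4, 78.8 and 38.9 CPM in *arp42∆*, against 24.0, 8.54 and 8.55 CPM in *smt0* (log2 2.28, adjusted p 1.96e-05). The groups did not overlap for either. As the counting strand is not given, reads of an antisense RNA and of its partner gene cannot be told apart. In the mitochondrial genome 7 of 36 genes were higher, 5 of them tRNAs that the tRNA list holds as well. *atp6*, a subunit of the ATP synthase, was the single lower one. *atp6* had 23, 14.3 and 21.5 CPM in *arp42∆*, against 483, 291 and 17.6 CPM in *smt0*, so *smt0* C lay among the *arp42∆* cultures (log2 -3.74, adjusted p 0.0109, lost without *smt0* A, 0.0717, *arp42∆* A, 0.0536, or *arp42∆* B, 0.106). The 7 and 1 calls were 0 and 0 without *arp42∆* B.

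Among called genes the largest decreases belonged to 2 neighbouring genes near the right end of chromosome I whose counts were at the floor in *arp42∆*. SPAC186.06 (I:5542290-5543031), which RefSeq lists as an isomerase, had 0, 0 and 2 counts in *arp42∆* cultures, against 68, 70 and 114 counts in *smt0* cultures. The ratio of *smt0* to *arp42∆* was 102 (counting interval 28.1 to 850). SPAC186.05c (I:5540032-5541502), a GDT1-like protein, had 1 count in *arp42∆* and 98 in *smt0* over the 3 cultures of each. Over the whole time course the highest count in the 12 *arp42∆* libraries was 5 for SPAC186.06 and 3 for SPAC186.05c, whereas both exceeded 5 counts in 68 of the other 69 libraries. No gene met the same rule in any other strain, and the flanking SPAC186.04c and SPNCRNA.310 had 1 and 0 counts over the *arp42∆* libraries. Their median counts in the other 69 libraries were low too, at 11 and 8. These 4 features were singled out after their values were seen, and as *arp42∆* stands for 1 deletion strain, another genomic difference of that strain and an effect of the *arp42* deletion cannot be told apart.

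*fmd2*, a glutathione-dependent formaldehyde dehydrogenase, had 90.1, 107 and 133 CPM in *arp42∆*, against 454, 325 and 346 CPM in *smt0*, with means of 110 ± 21.8 and 375 ± 69.4 (SD, n = 3 each). The groups were far apart and the log2 fold change was -1.76 ± 0.40 (SE; adjusted p 0.00276), whereas *fmd2* was higher at T1D. SPCC569.03 had 15.3, 16.6 and 47.4 CPM in *arp42∆*, against 124, 96.4 and 98.0 CPM in *smt0* (log2 -1.93, adjusted p 0.000163), and SPAC1F8.04c, a hydrolase, had 26.3, 20.5 and 43.5 CPM in *arp42∆*, against 122, 85.1 and 86.3 CPM in *smt0* (log2 -1.66, adjusted p 8.44e-07). In both, *arp42∆* C was the highest of its group and still below every *smt0* culture. *ctr4*, a copper transporter, fell by 2.11 on the log2 scale (adjusted p 0.00298), a call lost without *arp42∆* B (0.0689).

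Calls of a few lower genes rested on *smt0* A. SPAC11D3.01c, a protein of the conidiation-specific Con-6 family, had 21.2, 23.9 and 45.1 CPM in *arp42∆*, against 562, 67.1 and 97.8 CPM in *smt0*; without *smt0* A its log2 fold change of -2.98 (adjusted p 0.00709) became -1.37 (adjusted p 0.265), and the call was also lost without *arp42∆* A (0.0578) or *arp42∆* B (0.0799). For SPBPB21E7.10 the value was -2.77 (adjusted p 0.00289) with *smt0* A, and -1.67 (adjusted p 0.108) without it; without *arp42∆* B the adjusted p was 0.0526. *eno102*, an enolase paralog whose groups overlapped, went the same way, with -1.98 (adjusted p 0.0146) with *smt0* A and -0.66 (adjusted p 0.51) without, and it was lost without *arp42∆* A (0.068) or *arp42∆* B (0.148) too.

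Several genes of the remodelers to which Arp42 is assigned were lower. Of the 16 Ino80C genes tested, none was higher and 7 were lower (median -0.44), with *ino80* itself, the ATPase, at 335, 263 and 425 CPM in *arp42∆*, against 601, 609 and 688 CPM in *smt0*. Its groups did not overlap (log2 -0.89 ± 0.19, SE; adjusted p 0.00123), but the call was lost without *arp42∆* B (0.0687). The other 6 were *arp5*, *tfg3*, *rvb2*, *iec3*, *nht1* and *arp8*, with log2 fold changes of -0.61, -0.68, -0.53, -0.69, -0.53 and -0.45. The list had 0 lower without *arp42∆* B, 1 without *arp42∆* A and 3 without *smt0* C. Of the 19 SWI/SNF and RSC genes, 5 were lower and none was higher (median -0.23), namely *tfg3*, *arp42*, *snf21*, *snf22* and *sfh1*. Of these, *arp42* is the deleted gene itself and *tfg3* belongs to both lists. None of the 19 was lower without *arp42∆* A or without *arp42∆* B. *snf21*, the ATPase of RSC, had a log2 fold change of -0.65 and an adjusted p of 0.0219, and its call was lost without any 1 culture other than *smt0* C. Of all genes 5.54% were lower and the median was -0.03, and the median of nuclear protein-coding genes was -0.09. Both lists kept a negative median under each scaling tried. The scalings of the gene-count scale moved the median of all genes only between -0.10 and 0.07, so the kept sign is not separate support.

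Among genes of the translation machinery, ribosome biogenesis had 8 lower and 1 higher of 88 (median -0.28), beside 5.54% lower and 5.21% higher of all genes. Of the 1652 genes with the highest mean CPM, 158 were lower and 55 higher (median -0.15). *gar2*, a nucleolin, had 328, 206 and 496 CPM in *arp42∆*, against 733, 868 and 724 CPM in *smt0*, with no overlap (log2 -1.17 ± 0.21, SE; adjusted p 0.000198). *tif471*, the translation factor eIF4G, had 611, 496 and 915 CPM in *arp42∆*, against 1264, 1514 and 1545 CPM in *smt0* (log2 -1.09, adjusted p 0.00182), a call lost without *arp42∆* B (0.0739). The ribosome biogenesis count was 1 lower without *arp42∆* B, 2 without *arp42∆* A and 14 without *arp42∆* C. Cytosolic ribosomal protein genes changed little, with 2 higher and 1 lower of 138, and their median of -0.09 became 0.02 with upper-quartile factors. No gene passed the test among 34 proteasome and 8 hexose transporter genes, whose medians were -0.14 and 0.52. The log2 fold changes of the hexose transporters were all above 0 (0.11 to 2.07); DESeq2 called 2 of them higher, and 1 was called with upper-quartile factors, with the likelihood ratio test and with the replicate block. Of the proteasome genes DESeq2 called none.

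Heterochromatin and RNAi genes had 4 lower and none higher of 27 (median -0.24), beside 5.54% lower and 5.21% higher of all genes. The 4 were *sir2*, a histone deacetylase, *chp1* and *stc1*, which act in RNAi-directed silencing, and *cid12*, of the RNA-directed RNA polymerase complex. Their log2 fold changes were -0.64, -0.65, -1.13 and -0.41. None was lower without *arp42∆* A or without *arp42∆* B. Among 11 histone genes 10 had log2 fold changes above 0 (list median 0.38), and only *pht1* was called. It had 81.7, 96.2 and 59.0 CPM in *arp42∆*, against 48.4, 44.8 and 48.2 CPM in *smt0* (log2 0.73, adjusted p 0.0289). The *pht1* call was lost without *arp42∆* B (0.178) and without 3 other cultures in turn. DESeq2 called 2 histone genes higher, and 3 were called higher with upper-quartile factors. Stress genes gave no common direction: besides *cta3*, *trx1*, a thioredoxin, was higher by 0.77 and *pap1*, a transcription factor of the oxidative stress response, fell by 0.78 on the log2 scale, with the *trx1* call lost without *smt0* B or *arp42∆* B and the *pap1* call lost without *arp42∆* B. Of 40 division cycle genes, *cig2*, an S phase cyclin, and *rum1* were higher, and *cdc18*, a replication licensing factor, and *orc1* were lower; only the *cig2* call was kept with each of the 6 cultures left out in turn.

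Of 17 genes in the table of core quiescence genes none was higher and 4 were lower at T1W (median -0.52), whereas 9 were higher at T0 (median 2.69), where 8.85% of all genes were, and the change of the difference between T0 and T1W was downward for 9 of them (2.65% of all genes). The 4 lower genes were SPBPB21E7.10, *eno102*, *mel1* and SPNCRNA.1364, and none was lower without *smt0* A or without *arp42∆* B. Of 149 genes listed as induced by day 1 of quiescence, 16 were higher and 6 lower at T1W (median -0.12), where 5.21% and 5.54% of all genes were, whereas 59 were higher and 3 lower at T0. Both lists were chosen by the study on these samples, so they are not independent evidence of a direction. Near the chromosome ends, 7 of 92 genes were higher and 8 lower at the left end of I, 4 of 90 higher and 9 lower at its right end, 5 of 85 higher and 4 lower at the left end of II and 2 of 76 higher and 8 lower at its right end, beside 5.21% higher and 5.54% lower of all genes. Their medians were -0.03, -0.19, 0.17 and -0.23 in that order, and the first became 0 with upper-quartile factors.

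**Figure D4:**
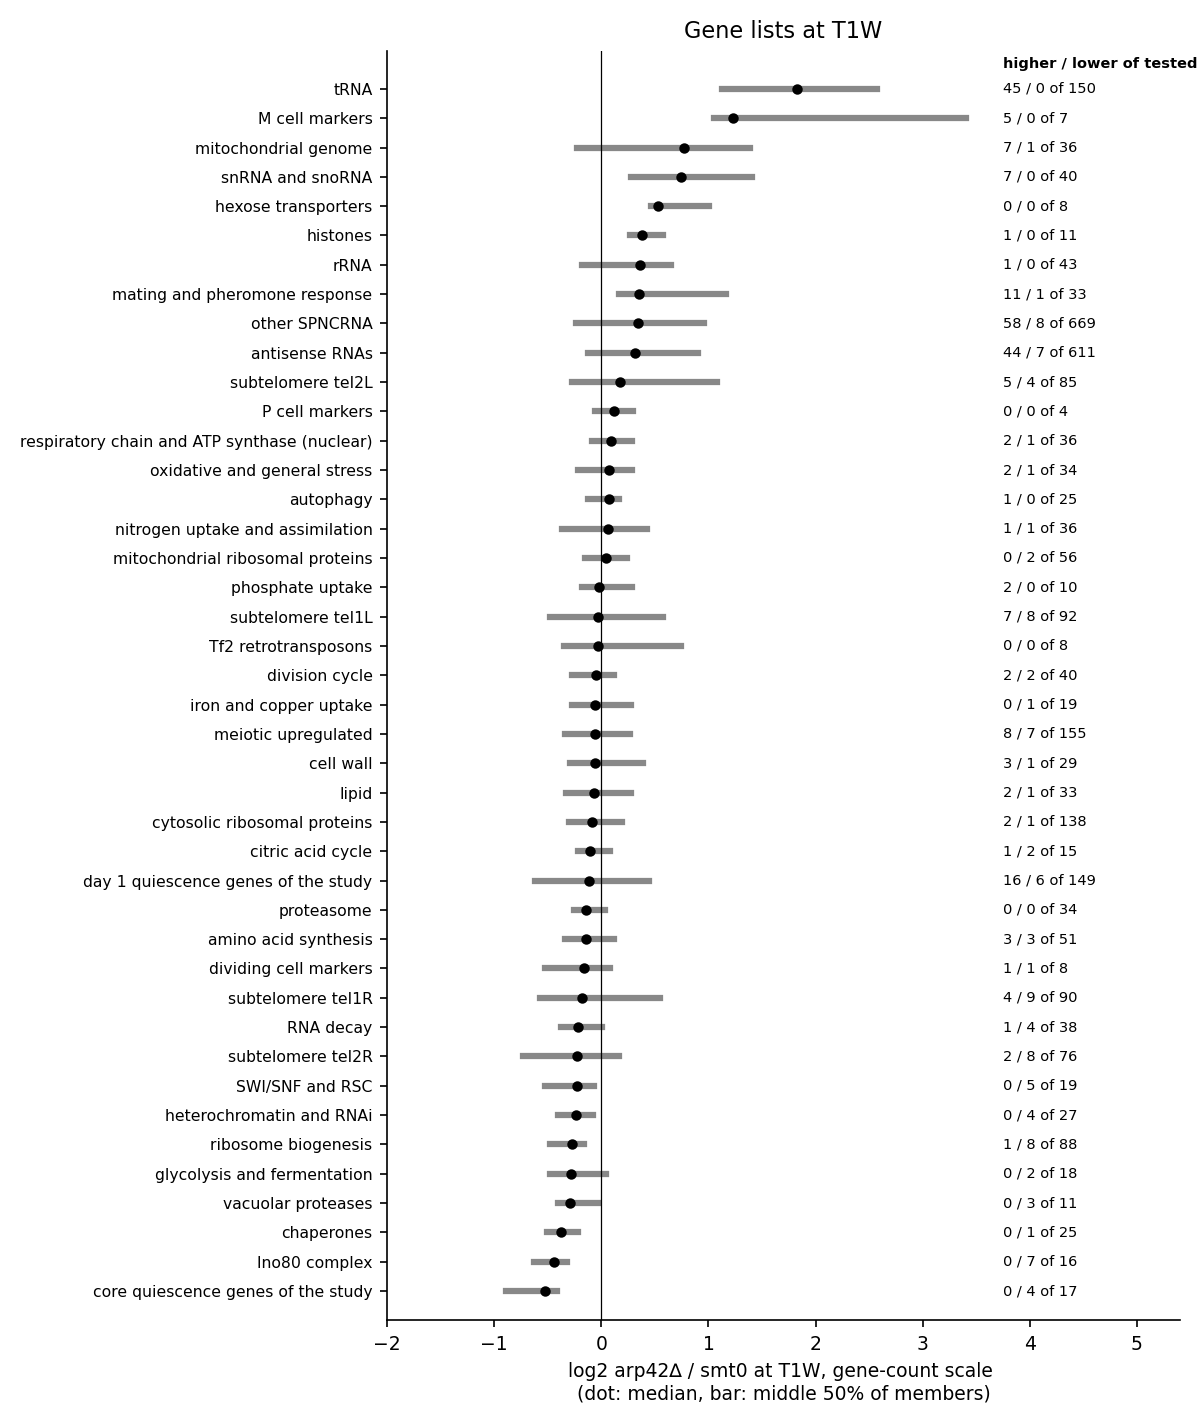
Log2 fold change of *arp42∆* over *smt0* at T1W on the gene-count scale for each gene list. Dots are medians of the members and bars are their interquartile ranges. The text for each list gives the members called higher and lower, of those tested (tRNA: 45 and 0 of 150). Of all genes 5.21% were higher and 5.54% lower. The tRNA list has the highest median (1.83). On the spike-in scale, not drawn here, its median of -0.84 was also the highest, and the other lists lay between -2.6 and -4.2.

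The difference between the strains was not the same at each time. Between *arp42∆* and *smt0*, 1296 genes differed at T0 (19.6%), 2130 at T1D (32.2%; 14.7% higher and 17.6% lower) and 1113 at T2W (16.8%; 9.29% higher and 7.55% lower). The difference at T1W departed from that at T0 for 361 genes (5.46%; 2.81% upward and 2.65% downward) and from that at T1D for 767 genes (11.6%, 378 upward and 389 downward). These contrasts share the T1W libraries. For the T0 contrast the number ranged from 176 to 684 when single cultures were left out, and for the T1D contrast from 355 to 1165. *fmd2* is an example of a gene that turned, with a difference between T1W and T1D of -3.26 on the log2 scale, and *mug150* is one whose difference was smaller, with a log2 fold change of 1.92 at T1W and 6.26 at T1D.

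**Figure D5:**
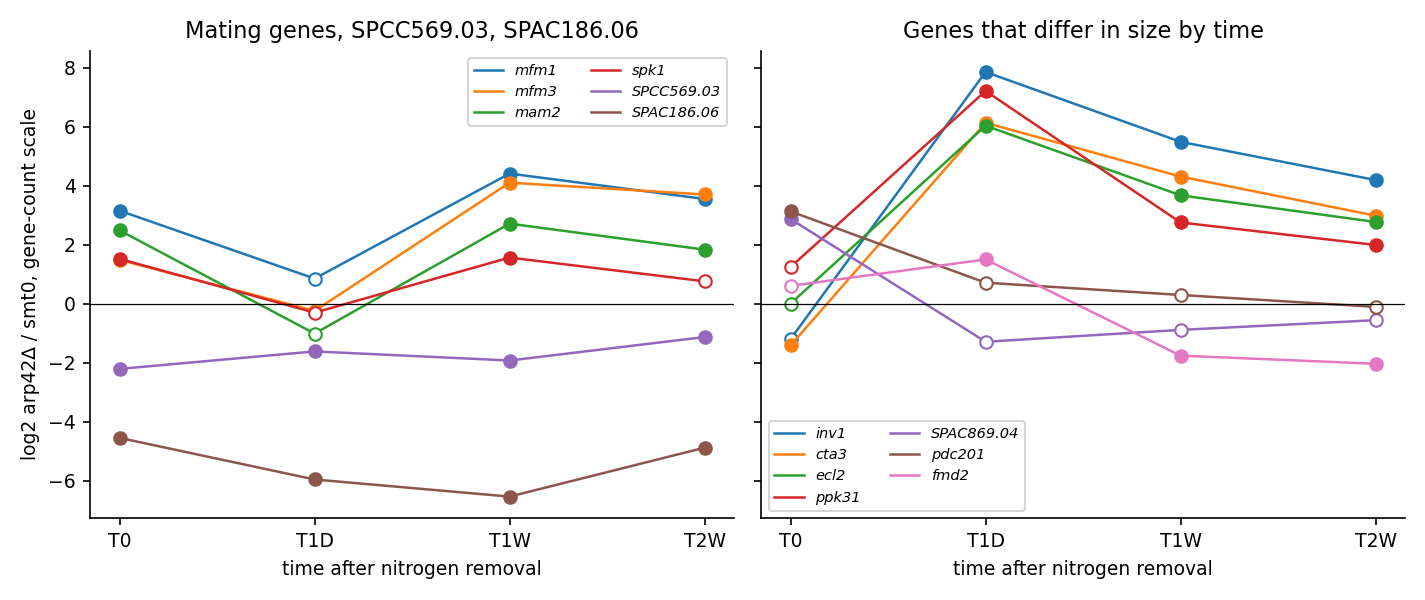
Log2 fold change of *arp42∆* over *smt0* on the gene-count scale at T0, T1D, T1W and T2W; filled points passed the test and open points did not. Values of SPAC186.06 rest on counts near the floor in *arp42∆*. *mfm1*, *mfm3*, *mam2* and *spk1* (left) are lowest at T1D, whereas *inv1*, *cta3*, *ecl2* and *ppk31* (right) are highest there, with 5.49 for *inv1* at T1W and 7.86 at T1D.

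Direct comparison at T1W separated *arp42∆* from *iec1∆*, *pht1∆* and *asp1∆* to unequal degrees. Against *iec1∆* 310 genes differed (4.69%), against *pht1∆* 358 (5.42%) and against *asp1∆* 3019 (45.7%). Of 150 tRNA genes 37 were higher than in *iec1∆* (2.59% of all genes were) and 26 higher than in *pht1∆* (2.71%), with 2 lower in each case (2.1% and 2.71%). Against *asp1∆* 36 were lower and 3 higher, where 22.4% of all genes were lower and 23.2% higher. *mfm1* had 3593 to 4760 CPM in *arp42∆*, against 615 to 1094 CPM in *iec1∆*, 160 to 721 CPM in *pht1∆* and 49.1 to 75.8 CPM in *asp1∆*. Of the 33 mating genes, 2 were higher than in *iec1∆*, 8 higher than in *pht1∆* and 22 higher than in *asp1∆*, beside the same shares of all genes. *cta3* had 372 to 704 CPM in *arp42∆*, against 99.3 to 168 CPM in *iec1∆*, 208 to 258 CPM in *pht1∆* and 562 to 582 CPM in *asp1∆*. The *asp1∆* values therefore lay within the *arp42∆* range. With single cultures left out these counts ranged from 37 to 566 for *iec1∆*, from 87 to 583 for *pht1∆* and from 2583 to 2859 for *asp1∆*.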

How the data were processed

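RNA was measured by ribosome-depleted, stranded sequencing with ERCC spike-in. The deposited values are raw counts per gene, made by the authors with bcl2fastq 2.20.0.422, STAR 2.7.9a (ASM294v2 plus ERCC) and featureCounts 1.5.1 on exons; the counting strand is not given in the sources used here. All 81 libraries in 27 groups were fitted together with edgeR 4.0.16 (R 4.3.3, quasi-likelihood test, no block), keeping 6608 of 7014 genes with over 1 CPM in at least 3 libraries. Among them are 9 libraries of *ies2∆*, which the study describes as a second batch. Without these, 776 genes were called on the gene-count scale (54.9% higher). TMM factors of the gene counts gave the gene-count scale; ERCC totals times ERCC TMM factors gave the spike-in scale. The threshold was an adjusted p of 0.05 (Benjamini-Hochberg). An SE is the size of the log2 fold change divided by the square root of F. Fold changes of genes near the floor (3 counts per library) depend on the prior count; for these the ratio of summed counts carries a 95% exact interval, which covers counting error only. ERCC counting error was at most 1.33%. Replicates are separate cultures. The edgeR p-values rest on a spread between replicates estimated over all 81 libraries in 27 groups, not on the compared cultures alone. On the gene-count scale 710 genes were called at T1W with this fit, and 183 with only the libraries compared.

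Members and gene lists were chosen with earlier results of these data known. Genes were named by rule: the deleted gene; among called genes averaging 20 or more counts whose groups did not overlap, the extremes by fold change and by level; genes higher on both scales; the smallest p-values of each list; and the extremes of the other contrasts. All called members of the mating and Ino80C lists were added after their values were seen. The names *sod2*, *gti1*, *car1* and *nic1*, which matched other genes, were removed from the lists and *mrp1* was excluded after the files were seen. Scripts were tested on simulated data. Alternatives included DESeq2 1.42.0 and leaving out each culture.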

Additional observations from a re-analysis of the deposited data

Results flagged for a closer look

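The difference between *arp42∆* and *smt0* at T1W was not that at T0 for 361 genes, by edgeR's test of the change in the difference on the gene-count scale. Among the genes named by size, SPBC660.05 changed by 8.59, *inv1* by 6.69 and SPBC460.04c by 5.90 upward on the log2 scale. SPAC869.04, a formamidase-like protein, changed by -3.76, SPAC11D3.01c by -3.58 and SPCC417.12, a carboxylesterase, by -3.48. At T0 *smt0* A stood apart for *inv1* (6.44 CPM, against 126 and 144 CPM in *smt0* B and C) and for SPBC660.05 (2.51 CPM, against 411 and 323 CPM). SPAC869.04 and SPCC417.12 were not called at T1W itself.

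The T1W difference was not that at T1D for 767 genes by the same test. It exceeded that at T1D by 4.35 for *mfm3*, 3.73 for *mam2* and 3.56 for *mfm1* on the log2 scale. It was below it for SPAC11D3.01c (-5.02), *ppk31* (-4.46) and *mug150* (-4.34). Groups of 3 cultures are too small for a test of single outlying samples, so none was run. The counts with each culture left out in turn are given below.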

How the results depend on the processing

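On the gene-count scale the 710 calls became 183 when only the 6 libraries compared were fitted, and 125 (without *arp42∆* B) to 1023 (without *arp42∆* C) when single cultures were left out. The other settings gave 591 to 814 calls, among them 753 with DESeq2, 652 with upper-quartile factors, 591 with total counts (39.9% higher) and 618 with no filter; TMM factors of nuclear coding genes only, chosen after seeing the data, gave 659 (74.1% higher). On the spike-in scale single cultures gave 5698 to 6228 calls. The same-lettered cultures correlated at 0.102, 0.108 and -0.019, and those with different letters at -0.164 to 0.09. These few values cannot decide whether the letters pair the cultures. With the letter as a replicate block 719 genes were called.

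For the change from T0 to T1W the 361 genes became 555 with only the groups compared, and 176 to 684 with single cultures left out. For that from T1D the 767 became 292, and 355 to 1165. Against *iec1∆* the 310 became 144, and 37 to 566; against *pht1∆* single cultures gave 87 to 583, and against *asp1∆* 2583 to 2859. Of 42 gene lists, 19 had more higher than lower calls on the gene-count scale and 0 on the spike-in scale. Of 141 called genes named, DESeq2 kept 130, the 6 libraries alone kept 59, leaving out *arp42∆* B kept 48 and leaving out *arp42∆* C kept 129; none changed direction under any of these settings. With 3 cultures a strain and 2869088 to 6000875 gene counts a library, a gene that missed the threshold was not shown to be unchanged.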

Other observations

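A few further gene groups had calls in both directions or few calls at T1W on the gene-count scale. Of 155 genes first described as upregulated in meiosis, 8 were higher and 7 lower in *arp42∆*, near the 5.21% and 5.54% of all genes. Their median was -0.06, and its sign turned with DESeq2 size factors and with upper-quartile factors. Of 11 vacuolar protease genes 3 were lower (median -0.30), including *cpy1*, carboxypeptidase Y, and none was lower without *arp42∆* B. Of 38 RNA decay genes 4 were lower and 1 was higher (median -0.22), the lower ones including the exosome genes *rrp4* and *rrp42*, and none was called without *arp42∆* A or without *arp42∆* B. Of 10 phosphate uptake genes 2 were higher, including *pho4*, a secreted phosphatase, and none was called without *arp42∆* B.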
